A study of Mus musculus with 5 samples.

Results

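Genes of the motile cilium were followed in RNA from YFP-positive cells sorted as stroma from mouse oviducts. They were taken as every row of the expression table whose symbol begins with Dnah, Dnai, Dnaaf, Cfap or Rsph followed by a digit, plus Foxj1, Rfx2, Rfx3, Mcidas, Gmnc, Ccno, Trp73 and Tppp3. The rule found 67 of 23857 listed genes: 14 Dnah, 5 Dnaaf, 33 Cfap and 7 Rsph genes and the 8 genes given by name. No Dnai symbol was listed, and the intermediate chain genes stood under the older names Dnaic1 and Dnaic2, which are given with the other cilia genes outside the rule.

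A motile cilium is built on the axoneme, a ring of microtubule doublets around a central pair. Outer and inner dynein arms slide the doublets, radial spokes and the central apparatus set the timing of the sliding, and dynein arms are assembled in the cytoplasm by dedicated factors before they enter the cilium. In the oviduct such cilia are carried in large numbers by multiciliated cells of the epithelium, where Gmnc, Mcidas, Ccno and Trp73 act early in the multiciliated fate and Foxj1 and the Rfx factors switch on the genes of the axoneme.

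The study sorted these cells from young adult female mice and sequenced total RNA in 1 library per mouse, made with a low-input kit that copies polyadenylated RNA. The 2 controls, mice 2 and 3, had the genotype Pdgfra-Cre;R26Y, and the 3 other mice, 1, 2 and 3, called knockout mice here after that label, had Pdgfra-Cre;Esr1(fl/fl);R26Y, so all 5 animals carried the recombinase and the reporter. Pdgfra-Cre is driven by the promoter of a mesenchymal receptor gene, and R26Y marks with YFP the cells in which Cre is or has been active, together with their descendants. Esr1 encodes estrogen receptor alpha, and the comparison asks what differs in the sorted cells when its floxed alleles are exposed to Cre.

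The values are TPM, the share of each transcript in a library, scaled by gene length to a fixed sum per library. TPM keeps no total depth, so no counting interval can be given. At least 1 TPM was reached by 19061 and 19432 genes in the controls and by 17148, 18190 and 15841 genes in knockout mice 1, 2 and 3. Esr1, the targeted gene, was at 83.3 and 77.6 TPM in control mice 2 and 3 and at 28.9, 85.0 and 170 TPM in knockout mice 1 to 3, so its level lay below both controls in 1 library labelled knockout and above both in the other two. Directions below therefore refer to libraries labelled knockout. Gene-level TPM does not show whether floxed exons were lost. Stromal markers were present in all libraries, with Pdgfra between 165 and 298 TPM, and so were epithelial markers, with Epcam between 70.8 and 218 TPM.

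Promoter sequence was examined because RFX factors bind a pair of inverted half-sites and FOXJ1 belongs to the forkhead family, so that the letters of such sites can be set beside the levels. RefSeq promoters (GRCm38.p6) were matched for 54 of the 67 genes. Those not matched were Cfap157, Cfap299, Cfap53, Cfap54, Cfap65, Cfap73, Cfap97, Dnaaf1, Dnah3, Foxj1, Rsph1, Rsph4a and Tppp3. In the 250 bases before any listed start of a gene, the RFX pair, the half-site GTNNCC followed after 2 bases by its reverse complement GGNNAC and so the same on both strands, was found in 6 of 54 cilia genes (11.1%) and in 489 of 27025 genes with a promoter (1.81%), or 335 of 15126 among genes tested here (2.21%). The forkhead core GTAAACA, searched on both strands, was found in 3 of 54 cilia genes (5.56%), namely Cfap20, Cfap43 and Dnah17. It was found in 956 of 27025 genes with a promoter (3.54%), or 430 of 15126 among genes tested here (2.84%). No cilia gene held both motifs. The 6 promoter stretches with the RFX pair are printed on the strand of the gene, 5′ to 3′, with the pair in capitals:
Cfap298: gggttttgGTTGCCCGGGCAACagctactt
Cfap126: tgttcaagGTATCCATGGCTACttctcagt
Cfap77: ggcgtcttGTCACCAAGGAGACgggacgtt
Cfap206: cgcgttccGTTTCCACGGTTACgcgactgc
Dnaaf5: tagcgccgGTTCCCTTGGAGACaggc
Ccno: gggctgcgGTTGCCACGGTGACgacagacg
They lie at chr16:90935016-90935045 (minus strand), chr1:171122955-171122984 (plus), chr2:29055281-29055310 (minus), chr4:34730208-34730237 (minus), chr5:139150209-139150234 (plus) and chr13:112987575-112987604 (plus). The first base of the pair is 188, 82, 236, 23, 18 and 219 bases before the start that the RefSeq promoter entry uses, in that order. A gene can have more than 1 start: the stretches of Cfap126, Cfap206 and Dnaaf5 lie downstream of the first base of the RefSeq gene and so within its span. In GENCODE M21 all 30 bases of the Cfap298 stretch, 8 of those of Cfap126 and 12 of those of Dnaaf5 are annotated as untranslated exon of some transcript of the gene, and the stretches of Cfap77, Cfap206 and Ccno touch no exon of theirs. These letters are a description of the sequence and not evidence of binding.

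All 67 cilia genes were detected in all 5 libraries, and all 67 passed the filter for testing, which asked for 1 TPM or more in 2 or more libraries. The lowest value was 0.65 TPM, for Dnah17 in knockout mouse 3, and the highest 191 TPM, for Cfap126 in knockout mouse 2. The median cilia gene stood at 8.38 and 9.23 TPM in control mice 2 and 3 and at 7.04, 11.5 and 10.8 TPM in knockout mice 1 to 3. Cilia transcripts of the multiciliated programme were thus present at moderate levels in a fraction labelled as stroma, in controls as well as in libraries labelled knockout. The libraries did not all stand in the same place: knockout mouse 2 held the highest value of the 5 libraries for 32 of 67 genes, and knockout mouse 1 the lowest value for 32. The plot of all cilia genes relative to the control mean shows this as a mostly red column for knockout mouse 2 and a mostly blue one for knockout mouse 1. All tested genes leaned the same way. Their median log2(TPM + 1) relative to the control mean was lowest in knockout mouse 1 (-0.15) and highest in knockout mouse 2 (0.095).

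**Figure D1:**
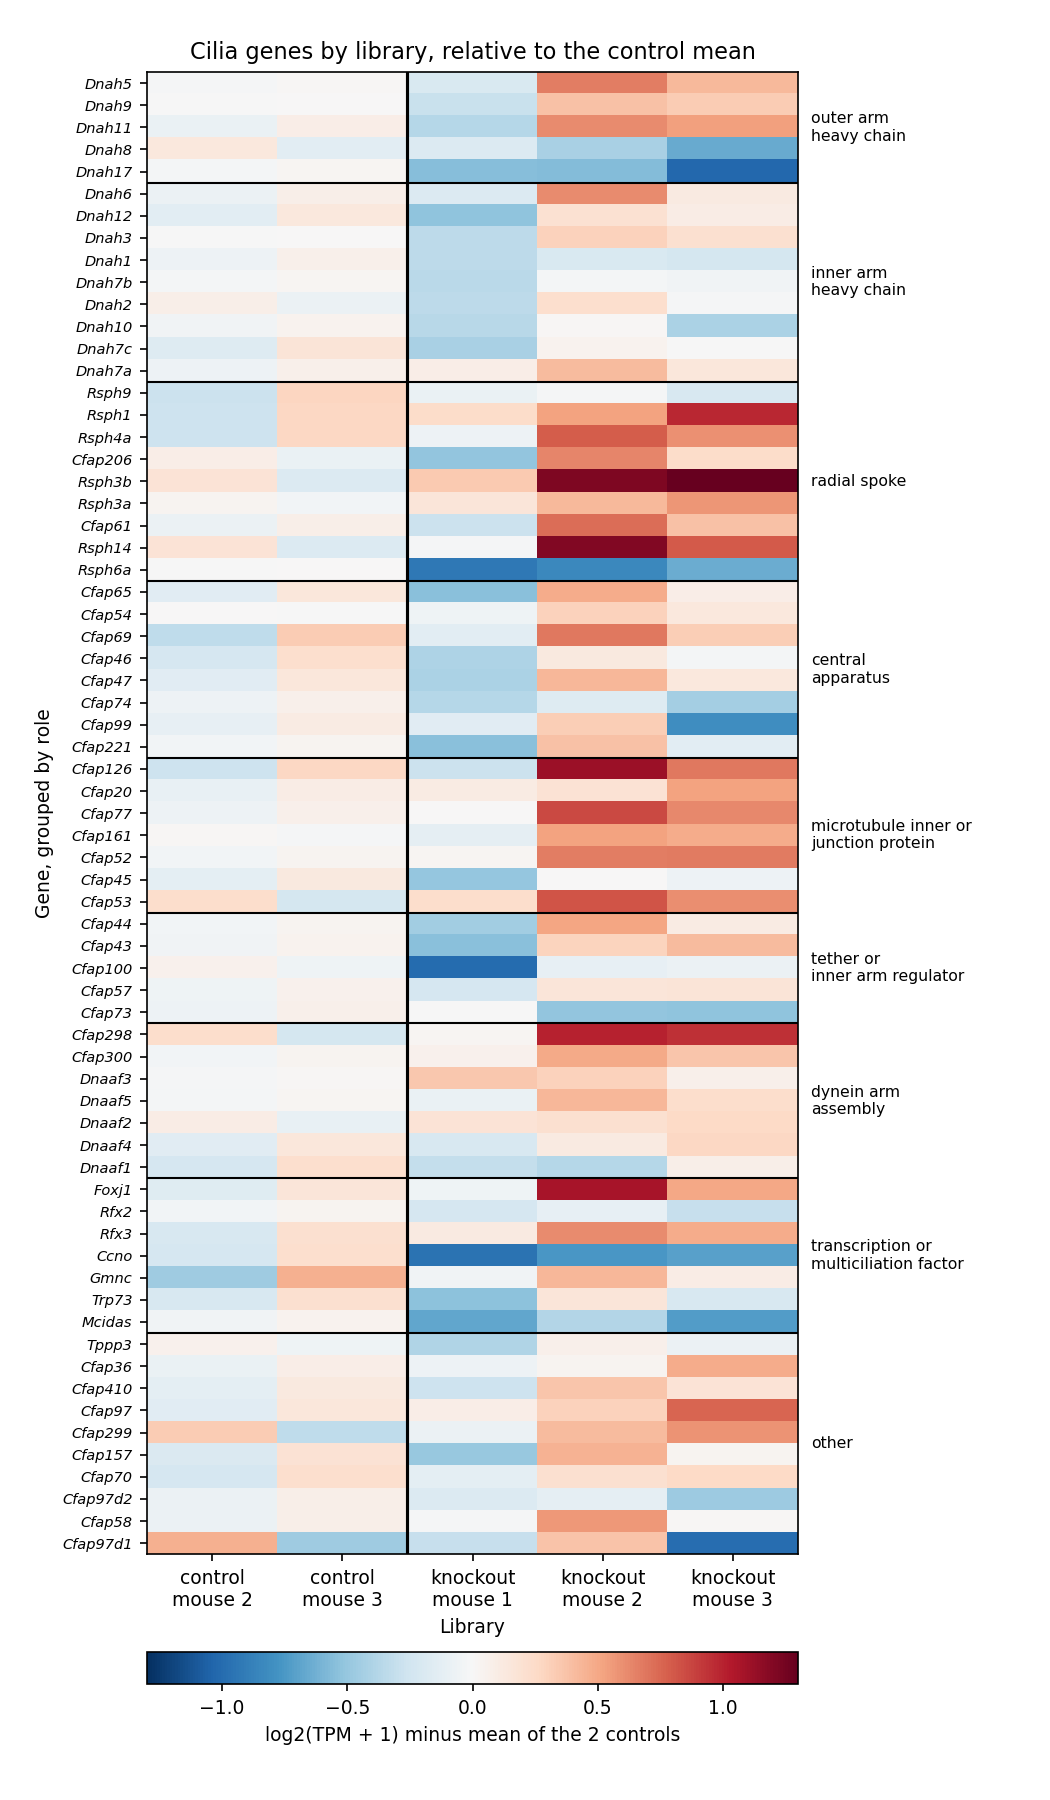
Heat map of the 67 cilia genes (rows, grouped by role) in the 5 libraries (columns). Colour is log2(TPM + 1) minus the mean of the 2 controls, red higher and blue lower. Ccno, Mcidas, Rsph6a and Dnah17 are blue in all 3 libraries labelled knockout, while Rsph3b, Rsph14, Cfap298 and Foxj1 are red in knockout mice 2 and 3.

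No cilia gene passed the test between the groups. In limma, fitted over all 19292 tested genes on log2(TPM + 1), 0 of 67 had an adjusted p under 0.05 and 4 had an unadjusted p under 0.05. The smallest adjusted p was 0.284, for Ccno. Over all tested genes 0.0104% passed as higher and 0.0156% as lower, so calls were rare for any gene in this design. Positive log2 fold changes numbered 9221 and negative ones 10071 over all 19292 tested genes. Of the 67 log2 fold changes of cilia genes 42 were positive and 25 negative. Their median was 0.090, against -0.022 over all tested genes, and the range was from -0.81 to 0.97. In 7 of 67 the 3 libraries labelled knockout lay above both controls together, a share of 10.4% where all tested genes gave 11.9%. In 11 of 67 all 3 lay below both, 16.4% where all tested genes gave 21.9%. Both shares were near those of all tested genes.

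**Figure D2:**
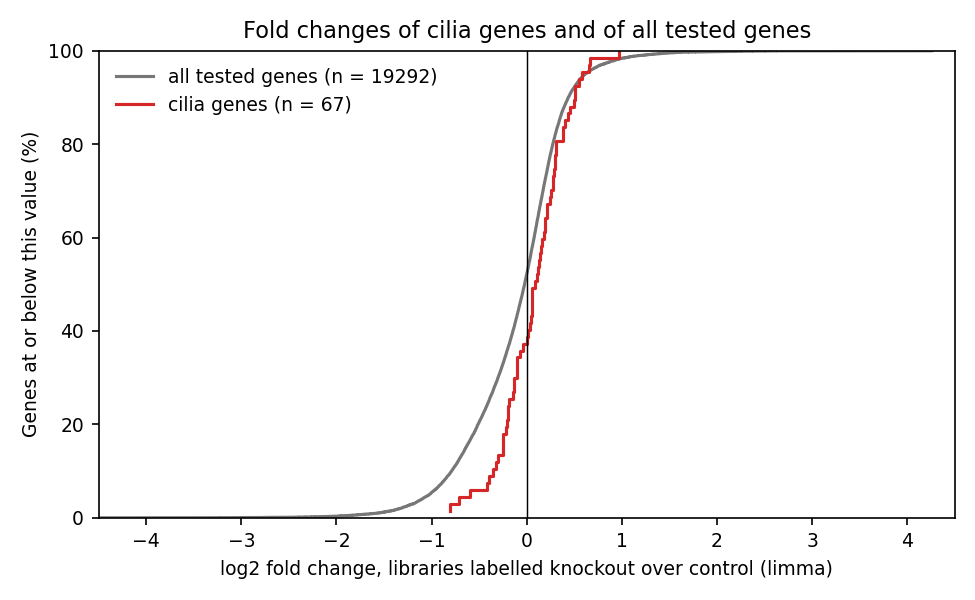
Cumulative distribution of limma log2 fold changes (x axis, libraries labelled knockout over control) for the 67 cilia genes (red) and all 19292 tested genes (grey), with the percentage of genes at or below each value on the y axis. The cilia genes run from -0.81 to 0.97, a narrower span than that of all genes.

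The position of the cilia genes relative to the controls differed among the libraries labelled knockout. In knockout mouse 1, 7 cilia genes (10.4%) lay above both controls and 41 (61.2%) below both, where all tested genes gave 20.8% and 53.9%. In knockout mouse 2 the counts were 43 above (64.2%) and 13 below (19.4%), against 47.5% and 32.6% of all tested genes. In knockout mouse 3 they were 36 above (53.7%) and 18 below (26.9%), against 40.9% and 44.3%. Without the library of knockout mouse 1, limma called 3 of 67 cilia genes higher and 0 lower, where it called 5.35% and 2.63% of all tested genes. Those 3 were Rsph3b (limma log2 difference 1.28, adjusted p 0.0236), Cfap298 (0.97, adjusted p 0.0342) and Cfap77 (0.74, adjusted p 0.0436). The share of 3 in 67 is close to that of all genes higher in the same fit.

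The 7 transcription and multiciliation factors did not share 1 direction, with 3 positive and 4 negative fold changes. Foxj1, the master regulator of motile cilia genes, was at 63.1 and 78.8 TPM in control mice 2 and 3 and at 67.9, 149 and 100.3 TPM in knockout mice 1 to 3. Knockout mice 2 and 3 lay above both controls and knockout mouse 1 between them. The log2 fold change was 0.51 with a 95% interval of -0.26 to 1.27 (limma, adjusted p 0.499). Rfx3, an RFX factor of primary and motile cilia alike, was at 8.38 and 11.5 TPM in controls against 10.7, 15.6 and 14.1 TPM in knockout mice 1 to 3. Rfx2, its relative, was steadier than any other cilia gene in these 5 libraries, at 15.6 and 16.5 TPM in controls and 13.7, 14.8 and 12.8 TPM in knockout mice 1 to 3, below both controls in each.

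Mcidas and Ccno, which act when a cell amplifies its centrioles, were low. Mcidas was at 1.98 and 2.19 TPM in controls against 0.94, 1.36 and 0.86 TPM in knockout mice 1 to 3 (limma log2 difference -0.59, adjusted p 0.394). Ccno was at 5.06 and 7.26 TPM in controls against 2.64, 3.19 and 3.35 TPM in knockout mice 1 to 3 (limma log2 difference -0.81, 95% interval -1.41 to -0.20 before adjustment, adjusted p 0.284). Both lay under the controls in each of the 3 without overlap, including the library in which Foxj1 was highest. Gmnc, which lies upstream of both, was at 2.08 and 4.83 TPM in controls against 3.11, 4.72 and 3.52 TPM in knockout mice 1 to 3, within the range of the controls. Trp73, a p53 family gene needed for multiciliated cells, was at 2.93 and 4.22 TPM in controls against 2.12, 4.05 and 2.92 TPM in knockout mice 1 to 3, and the groups overlapped.

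Among tested genes with a mean below 5 TPM, 38.9% lay below both controls in knockout mice 1 to 3, and among those at 5 TPM or more 12.9% did. Of the 15 cilia genes with a mean under 5 TPM, 5 did so (Ccno, Dnah17, Dnah8, Mcidas and Rsph6a), and of the other 52, 6 did (Cfap100, Cfap74, Cfap97d2, Dnah1, Dnah7b and Rfx2). The libraries labelled knockout also had fewer genes at 1 TPM or more than the controls, and the part of this in the low values was not tested.

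**Figure D3:**
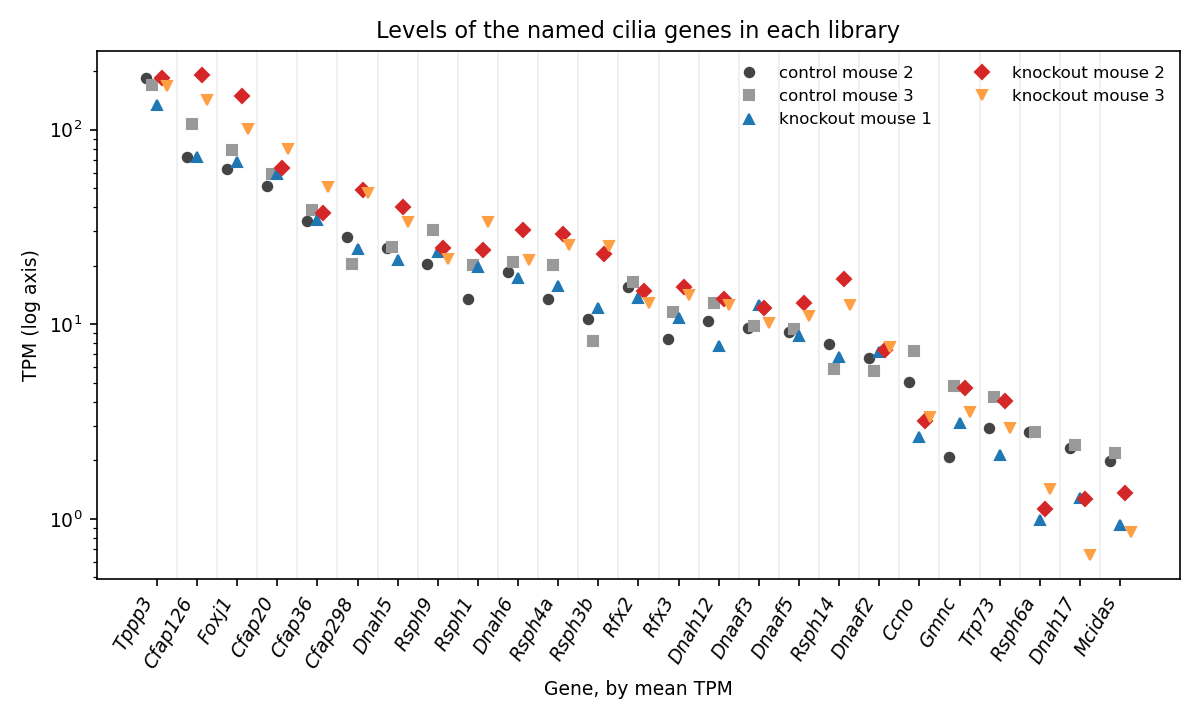
TPM on a log axis for the 25 named cilia genes (x axis, by mean level), with 1 point per library and controls in grey. Tppp3, Cfap126 and Foxj1 lead, and the 3 coloured points lie below both grey ones for Ccno, Rsph6a, Dnah17 and Mcidas, at the low end, and for Rfx2.

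Dynein heavy chains are the motors of the arms. Dnah5, an outer arm chain whose loss causes primary ciliary dyskinesia, was at 24.6 and 25.04 TPM in controls against 21.5, 40.0 and 33.5 TPM in knockout mice 1 to 3. It ranked first of the 14 heavy chains in all 5 libraries, and its log2 fold change was 0.30 (limma, adjusted p 0.615). Dnah6, an inner arm chain, ranked second in all 5, at 18.5 and 20.8 TPM in controls and 17.3, 30.5 and 21.4 TPM in knockout mice 1 to 3. Dnah12, also of the inner arm, was at 10.4 and 12.8 TPM in controls against 7.74, 13.4 and 12.5 TPM in knockout mice 1 to 3, with overlap. Outer arm chains Dnah9 and Dnah11 followed the order of Dnah5, lowest in knockout mouse 1 and highest in knockout mouse 2.

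Dnah17 and Dnah8, outer arm chains best known from sperm flagella, stood apart from Dnah5, Dnah9 and Dnah11. Dnah17 was at 2.31 and 2.41 TPM in controls against 1.28, 1.27 and 0.65 TPM in knockout mice 1 to 3 (limma log2 difference -0.72, adjusted p 0.355). Dnah8 was at 4.41 and 3.48 TPM in controls against 3.36, 2.68 and 2.13 TPM. Both were below the controls in all 3 libraries, while the other outer arm chains were above them in knockout mice 2 and 3. Dnah17 and Dnah8 have means under 5 TPM, where 38.9% of tested genes lay below both controls in all 3. Among tested genes at 5 TPM or more, as Dnah5, Dnah9 and Dnah11 are, 12.9% did. Of the 9 inner arm chains, 3 had a positive and 6 a negative fold change, and 8 lay below both controls in knockout mouse 1, where 53.9% of all tested genes and 61.2% of all cilia genes did. Dnah7a, Dnah7b and Dnah7c are close copies on chromosome 1, so reads may have been divided among them and their separate values are uncertain.

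Radial spoke genes held the 2 largest positive fold changes of the whole set, though none passed. Rsph3b, a spoke stalk gene, was at 10.7 and 8.17 TPM in controls against 12.1, 23.0 and 25.2 TPM in knockout mice 1 to 3, above both controls in all 3 (limma log2 difference 0.97, adjusted p 0.309). Its close copy Rsph3a was at 13.02 and 12.4 TPM in controls against 14.3, 17.3 and 19.4 TPM, also without overlap. The 2 genes lie on chromosome 17 and the division of reads between them is uncertain, so their shared direction may not be independent. Rsph14 was at 7.87 and 5.92 TPM in controls against 6.77, 17.1 and 12.6 TPM in knockout mice 1 to 3 (limma log2 difference 0.66).

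The spoke head genes differed among themselves. Rsph1 was at 13.5 and 20.2 TPM in controls against 19.7, 24.2 and 33.7 TPM in knockout mice 1 to 3 (limma log2 difference 0.58, adjusted p 0.403). Rsph4a was at 13.5 and 20.1 TPM in controls against 15.7, 29.2 and 25.5 TPM. Rsph9 showed no such order, at 20.4 and 30.7 TPM in controls and 23.6, 24.7 and 21.6 TPM in knockout mice 1 to 3, all within the range of the controls. Rsph6a, the sperm relative of Rsph4a, was at 2.78 and 2.79 TPM in controls against 0.99, 1.12 and 1.42 TPM in knockout mice 1 to 3 (limma log2 difference -0.80, adjusted p 0.293). It lay below both controls in all 3, the opposite direction to Rsph4a in knockout mice 2 and 3, and it is 1 of the low genes for which such a position was common.

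Proteins inside or between the doublet microtubules had the highest median fold change of the role groups, 0.46 over 7 genes, with 6 of 7 positive. Role groups were drawn after the values were seen. The median deviation from the control mean, in log2(TPM + 1), was 0.0040, 0.67 and 0.61 in knockout mice 1, 2 and 3. Cfap126, also called flattop, was at 72.4 and 106 TPM in controls against 72.3, 191 and 141 TPM in knockout mice 1 to 3 (limma log2 difference 0.51, adjusted p 0.569). Cfap20, an inner junction protein also used outside multiciliated cells, was at 51.5 and 59.4 TPM in controls against 59.5, 63.2 and 79.9 TPM, and the gap between control mouse 3 and knockout mouse 1 was small. Cfap77, whose promoter holds the RFX pair, was at 18.1 and 20.1 TPM in controls against 19.2, 35.5 and 29.9 TPM. Cfap126 and Cfap77 thus repeated the order of Foxj1, highest in knockout mouse 2 and next in knockout mouse 3. Among the libraries labelled knockout, the median over all tested genes had this order too, so it is not particular to these genes.

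Among the libraries labelled knockout, central apparatus genes had the order of Foxj1 by their median. Their median deviation from the control mean, in log2(TPM + 1), was -0.38, 0.35 and 0.032 in knockout mice 1, 2 and 3. Unlike Foxj1, most of them did not lie above both controls in knockout mouse 3. Of 8 such genes (Cfap46, Cfap47, Cfap54, Cfap65, Cfap69, Cfap74, Cfap99 and Cfap221), 7 lay below both controls in knockout mouse 1 and 6 above both in knockout mouse 2, but 1 lay above both in knockout mouse 3. Over all tested genes those shares were 53.9%, 47.5% and 40.9%. Their median fold change was -0.045 with 4 positive and 4 negative. Cfap65 was at 15.0 and 18.6 TPM in controls against 11.1, 23.8 and 17.8 TPM in knockout mice 1 to 3. Among the 5 tether and inner arm regulator genes (Cfap43, Cfap44, Cfap57, Cfap73 and Cfap100) the median was 0.037, and Cfap100 was at 10.4 and 9.63 TPM in controls against 4.52, 9.23 and 9.41 TPM.

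Assembly factors load the dynein arms before transport into the cilium. Of the 7 genes of this role, 6 had a positive fold change and 3 (Cfap300, Dnaaf2 and Dnaaf3) lay above both controls in all libraries labelled knockout, as 11.9% of all tested genes did. Dnaaf3 was at 9.55 and 9.76 TPM in controls against 12.6, 12.2 and 10.2 TPM in knockout mice 1 to 3 (limma log2 difference 0.24, adjusted p 0.576). Dnaaf5 was at 9.08 and 9.49 TPM in controls against 8.69, 12.9 and 11.03 TPM, and Dnaaf2 at 6.72 and 5.77 TPM and at 7.20, 7.37 and 7.64 TPM. Cfap298, an assembly factor found in many tissues, was at 28.1 and 20.3 TPM in controls against 24.4, 48.9 and 47.0 TPM (limma log2 difference 0.66, adjusted p 0.420). In GENCODE M21, 44.2% of the exon bases of Cfap298 are shared with a gene on the other strand. The share is 32.7% for Dnaaf2, 12.6% for Dnaaf3 and 10.6% for Dnaaf5. No strand setting is stated, so reads of these partners cannot be told apart. Dnaaf2 also shares 22.33% and 20.65% with Gm49383 and Gm49384 on its own strand, which a strand setting would not resolve.

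Tppp3 and Cfap36 are also expressed outside multiciliated cells. Among the libraries labelled knockout Tppp3 had the order of Foxj1, but in knockout mouse 3 it lay just below both controls. Cfap36 was instead highest in knockout mouse 3. Tppp3, a tubulin polymerization-promoting gene, had the highest mean of the set, 177 ± 10.2 TPM in controls (SD, n = 2) and 162 ± 25.9 TPM in libraries labelled knockout (SD, n = 3), with 134, 185 and 168 TPM in knockout mice 1 to 3. Cfap36 was at 34.0 and 38.7 TPM in controls against 34.5, 37.2 and 51.0 TPM. Over the 9 listed genes of this kind the median deviation from the control mean on the log2(TPM + 1) scale was 0.027, 0.30 and 0.48 in knockout mice 1, 2 and 3. Over the 58 others it was -0.25, 0.35 and 0.10. The median was thus highest in knockout mouse 2 for those 58 and in knockout mouse 3 for the 9 more widely used genes.

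The 6 lists of cilia genes outside the rule each had a higher median in knockout mice 2 and 3 than in knockout mouse 1. So did all tested genes, with medians of -0.15, 0.095 and -0.026 in knockout mice 1, 2 and 3. Of all 19292 tested genes 9221 had a positive fold change. No gene of the 6 lists passed the test. All 8 genes of the nexin-dynein regulatory complex, which links neighbouring doublets, had a positive fold change (median 0.30), all 8 above both controls in knockout mouse 2 and 6 in knockout mouse 3, where 47.5% and 40.9% of all tested genes were. Drc3 was at 26.9 and 29.3 TPM in controls against 27.0, 46.2 and 37.6 TPM in knockout mice 1 to 3. Of 13 other dynein and docking genes, Dnaic1 and Dnaic2 among them, 11 were positive. Dynlrb2, a dynein light chain, was at 75.0 and 103.5 TPM in controls against 126, 156 and 204 TPM (limma log2 difference 0.84, adjusted p 0.259), above both controls in all 3.

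The remaining lists covered other parts of the axoneme, assembly, transport and centriole amplification. Of 20 further axoneme genes 15 were positive, with Nme5 at 35.3 and 47.3 TPM in controls against 51.7, 62.7 and 70.8 TPM. Of 6 further assembly factors 4 were positive, with Zmynd10 at 9.26 and 18.5 TPM in controls against 13.04, 16.8 and 13.1 TPM. Of 24 intraflagellar transport genes, which serve primary cilia of most cells as well, 21 were positive with a median of 0.21, and Ift43 was at 55.3 and 61.3 TPM in controls against 56.7, 82.7 and 103.3 TPM. The 13 genes of multiciliation and basal bodies were evenly divided, 7 positive and 6 negative (median 0.0037), with E2f4 at 42.4 and 34.4 TPM in controls against 32.2, 45.8 and 38.0 TPM.

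Epithelial markers moved between libraries in the same direction as the cilia genes, and further in knockout mouse 3. Epcam was at 75.7 and 99.3 TPM in controls against 70.8, 152 and 218 TPM in knockout mice 1 to 3. Cdh1 was at 58.3 and 67.7 TPM and at 48.9, 124 and 127 TPM, and Krt8 at 66.7 and 80.2 TPM and at 62.0, 115 and 132 TPM. Of the 10 epithelial markers, 9 lay above both controls in knockout mouse 2 and 9 in knockout mouse 3, and 8 below both in knockout mouse 1, against the same 47.5%, 40.9% and 53.9%. Their summed level was 758 and 831 TPM in controls and 589, 1292 and 1814 TPM in knockout mice 1 to 3, and none of the 10 was at 0 in any library. The summed level of the 8 secretory markers was 6278 and 6168 TPM in controls and 7594, 14039 and 14688 TPM. In knockout mouse 1 that sum was carried by C3, a complement gene, at 5502 TPM against 3813 and 3435 TPM in controls, and the median secretory marker stood at -0.039 relative to the control mean on the log2(TPM + 1) scale. Ovgp1, the oviductal glycoprotein, was at 2273 and 2463 TPM in controls against 1522, 10655 and 11258 TPM, below both controls in knockout mouse 1 and above both in the other two. The part of epithelial RNA in the differences of the cilia genes was not tested, and in such bulk samples more cells of a type and more RNA per cell cannot be told apart.

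Set against Epcam, Foxj1 was at 0.83 and 0.79 of its TPM in controls against 0.96, 0.98 and 0.46 in knockout mice 1, 2 and 3. The ratio was thus lowest in knockout mouse 3, where the median epithelial marker stood 1.06 above the control mean on the log2(TPM + 1) scale and the median cilia gene 0.14 above it. In knockout mouse 2 those medians were 0.72 and 0.32, and in knockout mouse 1 -0.26 and -0.21. The median over all tested genes was -0.15, 0.095 and -0.026 in knockout mice 1, 2 and 3. Over the same libraries the 8 stromal markers summed to 23681 and 19141 TPM in controls and to 16205, 12711 and 14694 TPM, and the 8 immune markers to 2204 and 2747 TPM and to 1802, 1113 and 717 TPM. Of the stromal markers 4, 6 and 7 lay below both controls in knockout mice 1, 2 and 3, and 2, 1 and 1 above both. Over all tested genes the shares below both were 53.9%, 32.6% and 44.3%, and above both 20.8%, 47.5% and 40.9%. Summed endothelial markers ranged from 135 to 210 TPM and smooth muscle markers from 344 to 498 TPM. The 4 mesothelial markers summed to 567 and 485 TPM in controls against 306, 409 and 422 TPM, with Msln, Upk3b and Lrrn4 below both controls in each of knockout mice 1 to 3 and Wt1 above both. Their part in the levels of the cilia genes was not tested.

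**Figure D4:**
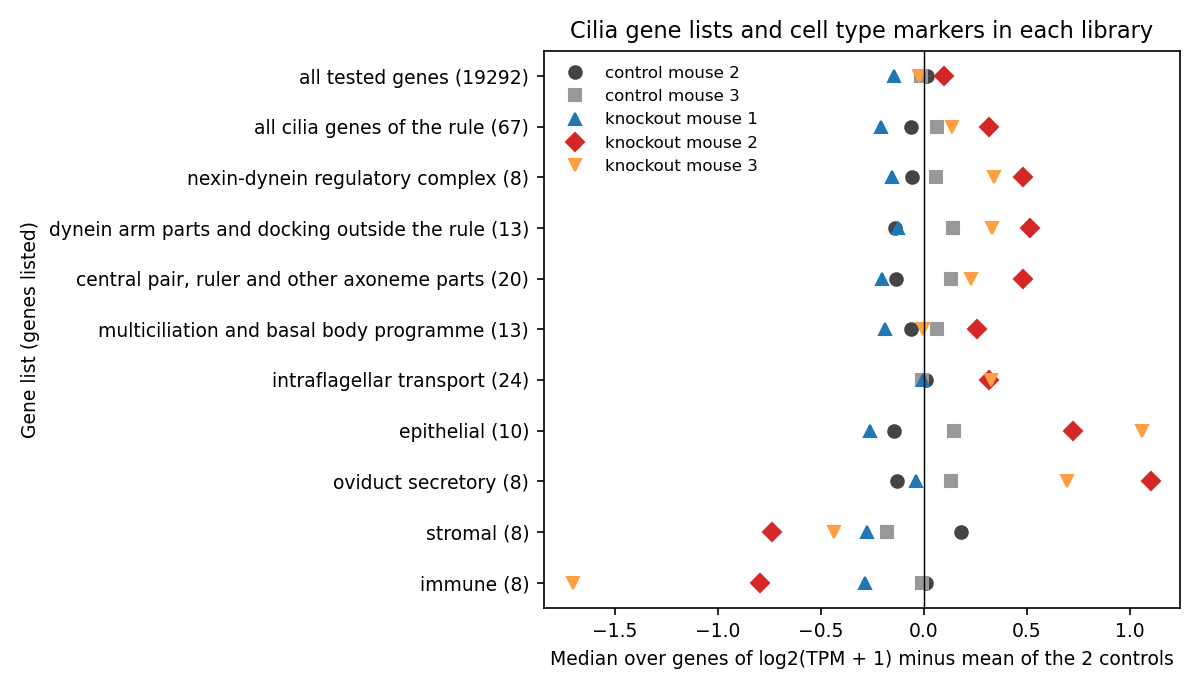
Median over the genes of each list (y axis, with the number of genes listed) of log2(TPM + 1) minus the mean of the 2 controls (x axis), with 1 point per library. For the 6 plotted rows of cilia genes and for epithelial markers knockout mouse 2 lies to the right of both controls and of knockout mouse 1. Knockout mouse 3 lies right of knockout mouse 2 for epithelial markers and left of it for the 67 cilia genes.

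The genes with an RFX pair in the promoter were described beside the other matched genes, without a test. Their median level over all libraries was 22.0 TPM over 6 genes, against 8.22 TPM over the 48 matched genes without it, and the ranges overlapped. Of the 6, 5 had a positive fold change (Cfap298, Cfap126, Cfap77, Cfap206 and Dnaaf5, median of all 6 0.34), and Ccno had the lowest fold change of all cilia genes. Of the 48 without the pair, 27 were positive, with a median of 0.054. Cfap206, a radial spoke gene, was at 19.0 and 16.8 TPM in controls against 12.2, 28.1 and 21.2 TPM in knockout mice 1 to 3.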

How the data were processed

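RNA was measured in 5 libraries, 1 per mouse, grouped by the labels. The deposited values are TPM per gene made by the authors. The table's name gives STAR, the genome build is mm10 per the submitters' processing notes, and the counter, annotation, read filters and strand setting are not given in the sources used here. Each library summed to 1000000 TPM, and 585 genes were at 0 in all 5. From these values log2(TPM + 1) was fitted with limma 3.58.1 in R 4.3.3 (eBayes with trend, genotype as the only term, two-sided), for genes with at least 1 TPM in at least 2 libraries, with Benjamini-Hochberg adjustment over all of them at a threshold of 0.05. The scale understates changes of low genes. The fit was tested on simulated data.

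The genes and lists were chosen with earlier results of these data known, and role groups and the limit of 5 TPM after the values were seen. Named genes are the 8 given by name, the 3 of each family with the highest mean, the 4 largest and 4 smallest fold changes, any past the threshold, the leading gene of each other cilia list, and Epcam, Cdh1 and Krt8. A few genes outside this rule (Dnah8, Dnah9, Dnah11, Rsph3a, Cfap65, Cfap77, Cfap100, Cfap206, Cdc20b, Deup1, Myb, C3, Ovgp1, Msln, Upk3b, Lrrn4, Wt1 and the neighbours of Mcidas) were named after their values were seen. Promoters are RefSeq's and exon overlaps GENCODE's, both for the build named in the notes. Python 3.11.15 with pandas 2.3.3 was used for sequences.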

Additional observations from a re-analysis of the deposited data

How the results depend on the processing

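The count of cilia genes past the threshold, 0 higher and 0 lower, was 0 in each direction with a pseudocount of 0.1, with no filter on low values, with median-of-ratios scaling, without Rpph1 and Rn45s (the former an RNA that took 13.1% to 22.3% of TPM), and without either control or knockout mouse 2 or 3. It was 1 higher with library weights (Rsph3b, limma adjusted p 0.0470) and 0 to 3 higher when each of the 5 libraries was dropped in turn, the 3 coming without knockout mouse 1. Over all genes, 2 higher and 3 lower became 0 and 0 with a pseudocount of 0.1, 1 higher with no filter, 0 higher with median-of-ratios scaling, 5 lower without Rpph1 and Rn45s, and 260 and 396 with library weights. Leaving out 1 library each gave 0 to 1022 higher and 0 to 502 lower. The cause was not tested.

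With the mouse number as a replicate block there were 5 higher cilia genes (Cfap298, Cfap77, Rsph1, Rsph14 and Rsph3b) and 0 lower, and 1165 higher and 693 lower over all genes. Only the numbers 2 and 3 occur in both groups, for different mice, and only those libraries inform this fit. Deviations from the group means correlated across genes at -0.060 for mouse 2 and -0.072 for mouse 3. With only 2 controls, their deviations mirror each other, so these values cannot show whether libraries of the same number share anything more.

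The median fold change of the cilia genes, 0.090, ran from -0.028 without knockout mouse 2 to 0.26 without knockout mouse 1, and positive genes numbered 32 to 47 of 67 over those 5 fits and 35 without Rpph1 and Rn45s. Of 275 alternative values for the 25 named genes, 259 kept direction and side of the threshold, 7 newly passed and 9 changed sign. Dnah12 became positive with library weights (0.093) and with the block (0.15), and over the fits without 1 library it ran from -0.21 to 0.15. The same fits gave Cfap36 -0.017 to 0.26, Dnah6 -0.028 to 0.37, Gmnc -0.30 to 0.62, Rsph9 -0.38 to 0.18 and Trp73 -0.40 to 0.0084. Where 1 control is left, it is assumed to vary like the other group. TPM holds no depth, so genes near 1 TPM, such as Mcidas, Dnah17 and Rsph6a, are the least precise.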

Other observations

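Ccno and Mcidas are neighbours on mouse chromosome 13 (GRCm38.p6, 112987802 to 112990778 and 112993581 to 113000394), with 2802 bases between them, and Cdc20b, whose introns carry the miR-449 genes of multiciliated cells, lies beside them (113034975 to 113121019). Cdc20b was at 2.81 and 4.96 TPM in control mice 2 and 3 and at 1.43, 2.26 and 0.42 TPM in knockout mice 1 to 3 (limma log2 difference -1.09, adjusted p 0.345). All 3 genes lay below both controls in every library labelled knockout. The other 4 protein-coding genes that overlap or lie within 100 kb of Mcidas, Mtrex, Dhx29, Gpx8 and Gzma, had overlapping groups, with Gpx8 at 47.4 and 57.7 TPM in controls against 56.7, 31.0 and 48.9 TPM. The position was noticed after the values were seen, none of the 3 passed the test, and 38.9% of tested genes with a mean under 5 TPM had the same order.

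Deup1, another gene of centriole amplification, was at 1.87 and 3.09 TPM in controls against 1.76, 2.11 and 0.62 TPM in knockout mice 1 to 3. Myb, which acts at the same stage, was at 6.74 and 10.98 TPM in controls against 5.75, 12.6 and 11.97 TPM. Genes that act early in multiciliation thus did not share 1 direction.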
